A study of Mus musculus with 15 samples.

Results

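The 40 genes described here encode proteins that carry secretory proteins into the endoplasmic reticulum (ER), fold and glycosylate them there, remove the misfolded ones, and sense the load. The rule is a list of symbols grouped by what the proteins do; it uses no measured value, but the list was drawn up with earlier results of these data known. All 40 were found among the 39179 genes of the count tables, and all 40 were among the 14304 genes with enough reads to be tested. By role they comprised 9 genes of the translocon and signal peptide removal, 4 of N-glycosylation, 9 chaperones and cochaperones, 5 lectin chaperones and disulfide isomerases, 6 of ER-associated degradation, and 7 stress sensors and transcription factors. The fewest reads of any member in any sample were 36, of Trib3 in IR+Shh.

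RNA came from the submandibular salivary gland (SMG) of adult male C57BL/6 mice, in 5 groups of 3 libraries each. NT glands were not treated, and IR glands were taken 7 days after local irradiation. The other 3 groups had the same irradiation and in addition a gene delivered into the gland: green fluorescent protein in IR+GFP, the Hedgehog transcription factor Gli1 in IR+Gli1, and the Hedgehog ligand Shh in IR+Shh. The vector, promoter, dose and species of the delivered genes are not given in the sources used here, so the cells that received them cannot be named. All groups with a delivered gene were irradiated, and no group received Gli1 or Shh without irradiation.

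A gland cell that secretes makes most of its protein on ER-bound ribosomes. The chain enters through the Sec61 channel, loses its signal peptide, receives N-linked glycans from the oligosaccharyltransferase, and is folded by Hspa5 (BiP) with its cochaperones, by the lectin chaperones and by protein disulfide isomerases. When unfolded chains accumulate, the sensors Ern1 (IRE1), Eif2ak3 (PERK) and Atf6 start the unfolded protein response, in which the factors Xbp1, Atf4 and cleaved Atf6 raise chaperone and degradation genes, and Ddit3 (CHOP) and Trib3 mark a stronger response. The sensors are switched by cleavage, phosphorylation or RNA splicing, which counts of reads per gene do not show.

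The libraries held 18205941 to 41064723 reads in genes. In each group 2 of the 3 libraries differed by less than the sampling noise of reads (mean chi-square per gene 0.215 to 0.337 in these 5 pairs, 22.0 to 223 in the 10 other pairs), so each such pair was counted as 1 sample, leaving n = 2 per group and 10 samples in all. Separate animals are not named in the labels. The p-values therefore measure the spread between these samples, which may be technical. The combined sample of NT 2 and 3 stood apart in its summed level of 7 sublingual gland markers, 34462 CPM (gene counts scaled to a common library size), against 5.68 in NT 1; IR+GFP 1 and 2 had 190 and the other samples 4.20 to 8.69. The 11 markers of granular convoluted tubules, the ductal segment that makes growth factors and kallikreins, summed to 44137 and 83969 CPM in the samples labelled IR+Gli1. Their sums were 124172 to 144521 CPM in IR+Shh and 187303 to 268960 CPM in NT, IR and IR+GFP. The 11 acinar markers summed to 8748 to 47183 CPM, most of it from Prol1, and Smr3a was at 0 to 0.0541 CPM. Aqp5, an acinar water channel, was found in every sample at 137 CPM or more. Reads of Gli1 were as few in the samples labelled IR+Gli1 (0.558 and 0.672 CPM) as in NT, IR and IR+GFP (0.513 to 0.809) with TMM scaling, and more frequent in IR+Shh (2.73 and 4.24); without TMM factors the samples labelled IR+Gli1 were at 0.878 to 0.958 CPM, above the 0.467 to 0.700 of those 3 groups. Mouse Shh had 0 reads in all samples. In whole-gland RNA, fewer cells of a type and less RNA per cell cannot be told apart.

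Where the level of a gene is given for both samples of a group, the single library comes first and the combined pair second. The single libraries carry the number 1 in NT, 2 in IR+Shh and 3 in each of the other groups. Levels are CPM scaled with TMM, which sets libraries on a common scale by the bulk of their genes.

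Sequences near the start of these genes are shown because part of the list carries a known DNA element for Atf6 and Xbp1. This ER stress response element (ERSE) is CCAAT and CCACG with 9 bases between them. RefSeq (GRCm38.p6) gave a promoter window, 250 bases before to 50 bases after the start, for 32 of the 40 genes; Atf6, Derl1, Hyou1, Manf, Ostc, Sec11c, Sec61a1 and Ssr2 had none. Both strands were searched. The ERSE was found in 9 of 32 members (28.1%), against 37 of 27025 genes with a window (0.137%). The holders were 4 of 7 chaperones and cochaperones, 3 of 5 lectin chaperones and disulfide isomerases, and 2 of 5 genes of ER-associated degradation. No window of the translocon, N-glycosylation or sensor genes held one. The elements read as follows on the strand where CCAAT comes first, with the fixed bases in capitals.

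Calr: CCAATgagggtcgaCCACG
Canx: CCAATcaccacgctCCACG
Creld2: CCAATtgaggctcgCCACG
Derl3: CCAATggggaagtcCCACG
Dnajc3: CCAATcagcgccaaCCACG
Hsp90b1, upstream: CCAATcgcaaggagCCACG
Hsp90b1, nearer the start: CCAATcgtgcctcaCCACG
Hspa5: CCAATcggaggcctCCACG
Pdia6: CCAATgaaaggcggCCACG
Syvn1: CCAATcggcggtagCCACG

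The elements began 65 bases before the start in Hspa5, 126 in Creld2, 162 in Calr and 44 in Syvn1, and Hsp90b1 held 2 of them, beginning 212 and 107 bases before its start. A related element, ERSE-II (ATTGG and CCACG with 1 base between), was in Herpud1, beginning 52 bases before the start, and in Dnajb11, beginning at base 7 after the start, and in 12 of 27025 genes (0.0444%).

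Dnajb11: ATTGGcCCACG
Herpud1: ATTGGgCCACG

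The core TGACGTGG was in 0 of 32 members and in 0.714% of genes. TGATGCAA or TGATGAAA, cores of the element bound by Atf4, were in 1 member, Herpud1, and in 2.16% of genes. A match is a description of letters, not of a bound site. The windows of Creld2 (chr15:88819396-88819695, plus strand), Syvn1 (chr19:6046326-6046625, plus), Calr (chr8:84846882-84847181, minus) and Canx (chr11:50325624-50325923, minus) are printed whole, 5′ to 3′ along the gene, as they hold an ERSE. Creld2 and Syvn1 are the holders that passed in a comparison with TMM, and Calr and Canx come first by symbol among the rest. Canx and some others of the rest passed in a comparison with total-count scaling, described below. Capitals mark the fixed bases of the ERSE, which in Creld2 and Calr lie on the other strand and so read CGTGG and ATTGG.

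Creld2: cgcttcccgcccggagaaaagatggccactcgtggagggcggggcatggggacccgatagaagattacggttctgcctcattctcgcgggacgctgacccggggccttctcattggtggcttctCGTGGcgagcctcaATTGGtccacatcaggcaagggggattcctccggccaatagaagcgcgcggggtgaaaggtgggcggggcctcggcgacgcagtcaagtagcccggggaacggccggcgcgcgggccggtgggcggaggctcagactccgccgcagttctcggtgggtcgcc
Syvn1: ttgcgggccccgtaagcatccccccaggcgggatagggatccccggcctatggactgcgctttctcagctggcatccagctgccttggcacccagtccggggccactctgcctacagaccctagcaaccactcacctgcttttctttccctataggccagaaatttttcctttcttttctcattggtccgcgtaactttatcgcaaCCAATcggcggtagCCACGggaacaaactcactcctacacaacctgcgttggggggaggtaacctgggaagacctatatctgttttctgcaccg
Calr: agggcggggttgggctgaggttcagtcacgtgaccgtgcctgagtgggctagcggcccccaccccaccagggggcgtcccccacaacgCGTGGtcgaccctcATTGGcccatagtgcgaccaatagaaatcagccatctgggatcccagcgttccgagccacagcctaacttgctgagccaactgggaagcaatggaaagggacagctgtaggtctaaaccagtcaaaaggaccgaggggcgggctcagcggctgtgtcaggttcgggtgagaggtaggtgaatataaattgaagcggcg
Canx: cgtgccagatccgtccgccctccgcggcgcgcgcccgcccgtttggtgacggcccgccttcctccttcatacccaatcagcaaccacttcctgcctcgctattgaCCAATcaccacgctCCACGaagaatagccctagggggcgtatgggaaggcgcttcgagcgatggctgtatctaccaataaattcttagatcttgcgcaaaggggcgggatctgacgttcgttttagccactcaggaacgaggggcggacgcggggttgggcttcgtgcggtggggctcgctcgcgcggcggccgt

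The first comparison, IR against NT, describes the irradiated gland at day 7. Of the 40 ER genes 3 passed, all lower after irradiation: Creld2, Ostc and Pdia3. In the sum over all 40 genes, the ER list took 0.928% to 1.01% of gene reads in the NT samples and 0.685% to 0.696% in the IR samples. The median log2 fold change was -0.36 over the 40 genes and -0.02 over all 14304 genes, and 34 of 40 genes had a negative value. The edgeR quasi-likelihood test with Benjamini-Hochberg adjustment over all genes called these 3 members with TMM. Of all genes tested, 0.685% were called, 0.168% as lower and 0.517% as higher. With total-count scaling, which divides by the total of gene reads alone, 9 members were lower and 0 higher, against 0.636% of all genes called, 0.175% as lower and 0.461% as higher. In 28 members both IR samples lay below both NT samples and in 3 both lay above; over all genes these shares were 27.3% and 23.9%, 51.2% together.

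**Figure D1:**
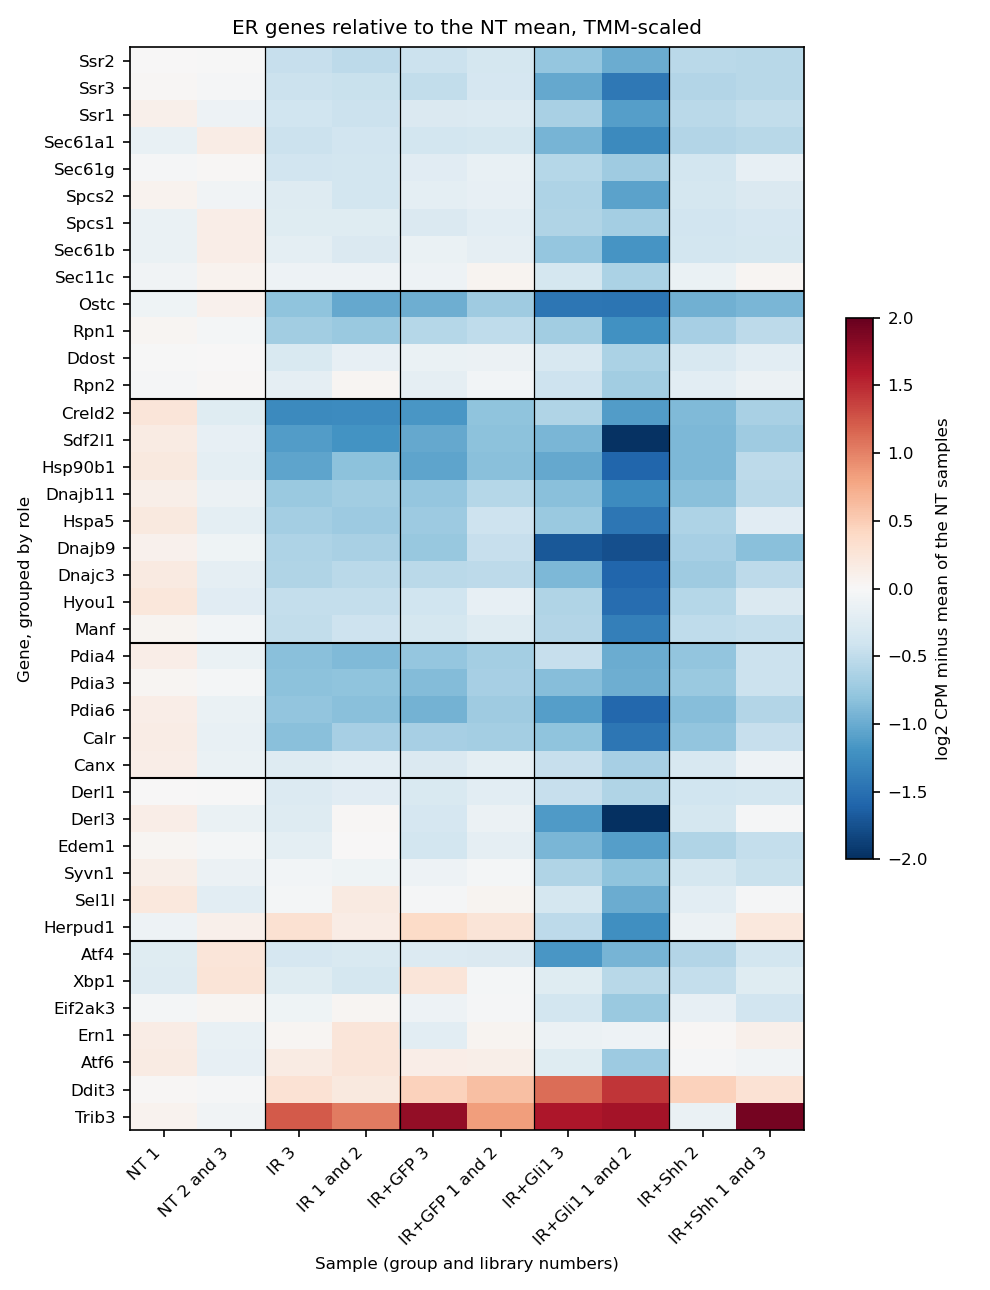
Each row is one of the 40 ER genes, grouped by role, and each column is one of the 10 samples; colour is the TMM-scaled log2 CPM minus the mean of the NT samples, with full colour at 2 and -2. Chaperone and isomerase rows are blue in all irradiated samples, most rows are darkest in the samples labelled IR+Gli1, and Ddit3 is red in all irradiated samples.

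Of the 9 chaperones and cochaperones 1 passed as lower in IR; all 9 log2 values were below 0, with a median of -0.71. Creld2, an ER protein with isomerase activity that is induced by ER stress (chr15:88819646-88826683), was at 138 and 98.7 CPM in NT and at 48.5 and 48.6 CPM in IR. Both IR values lay below both NT values, a 2.44-fold difference (log2 -1.29 ± 0.21, SE, adjusted p = 0.0399). Without NT 2 and 3 the log2 value was -1.51 with adjusted p = 0.0632. Hspa5, the ER Hsp70 that binds unfolded chains (chr2:34771970-34777547), was at 1379 and 1047 CPM in NT and 754 and 729 CPM in IR; the groups did not overlap, but the difference did not pass (log2 -0.71 ± 0.25, adjusted p = 0.192). Hsp90b1 (GRP94), the ER Hsp90, had 738 and 557 CPM in NT and 308 and 363 CPM in IR (log2 -0.95 ± 0.22, adjusted p = 0.0961), and passed with total-count scaling (adjusted p = 0.0226). Sdf2l1, a partner of ER J-proteins, had the second lowest log2 value of the 40, -1.16 ± 0.30, and also passed only with total-count scaling (adjusted p = 0.128 and 0.0120). Dnajb9 (ERdj4), a J-protein that recruits Hspa5, was at 94.0 and 83.9 CPM in NT and 58.0 and 56.6 CPM in IR (log2 -0.63 ± 0.12, adjusted p = 0.0516). Dnajb11, Dnajc3, Hyou1 and Manf, further partners or regulators of Hspa5, had log2 values from -0.46 to -0.73, of which that of Dnajb11 passed with total-count scaling (adjusted p = 0.0327).

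Of the 5 lectin chaperones and disulfide isomerases 1 passed as lower; all 5 log2 values were below 0, with a median of -0.81. Pdia3 (ERp57), the isomerase that works with the lectin chaperones on glycoproteins (chr2:121413775-121438687), was at 795 and 751 CPM in NT and 438 and 442 CPM in IR. The gap between groups was larger than the spread within either, a 1.76-fold difference (log2 -0.81 ± 0.14, adjusted p = 0.0399). Without NT 2 and 3 it was -0.86 with adjusted p = 0.107. Pdia4 (log2 -0.86 ± 0.18, adjusted p = 0.0727) and Pdia6 (-0.82 ± 0.18, 0.0785) missed the threshold and passed with total-count scaling (0.0147 and 0.0234). Calr, a soluble lectin chaperone, was at -0.75 ± 0.22 (adjusted p = 0.136), and its membrane-bound relative Canx at -0.25 ± 0.14 (adjusted p = 0.381).

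Among the N-glycosylation genes, Ostc, a subunit that links the oligosaccharyltransferase to the translocon (chr3:130695912-130709444), was at 75.8 and 84.9 CPM in NT and 46.0 and 39.5 CPM in IR. It had the smallest adjusted p of the 40 in this comparison (log2 -0.91 ± 0.12, 1.88-fold, adjusted p = 0.0126) and 0.0748 without NT 2 and 3. The other subunits differed less: Rpn1 -0.71 ± 0.16 (adjusted p = 0.0806; 0.0327 with total-count scaling), Ddost -0.23 ± 0.12 (0.364) and Rpn2 -0.06 ± 0.13 (0.858). Of the 9 genes of the translocon and signal peptide removal 0 passed. Their log2 values ran from -0.50 (Ssr2) to -0.10 (Sec11c), with a median of -0.38. In all 9 both IR samples lay below both NT samples, against 27.3% of all genes (51.2% not overlapping in either direction).

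Of the 6 genes of ER-associated degradation and the 7 sensors and transcription factors 0 passed. Their median log2 values were -0.08 (4 of 6 below 0) and 0.14 (3 of 7 below 0); differences between roles were not tested. Herpud1, a scaffold of the degradation complex, was at 236 and 273 CPM in NT and 314 and 283 CPM in IR (log2 0.23 ± 0.21, adjusted p = 0.624). The sensors Ern1 (80.0 and 65.8 CPM in NT, 74.2 and 85.8 in IR), Eif2ak3 (105 and 110, 101 and 111) and Atf6 (126 and 100, 126 and 133) had overlapping groups. Xbp1, the factor that Ern1 activates by splicing, was at 215 and 308 CPM in NT and 217 and 202 CPM in IR. Atf4, translated when Eif2ak3 is active, was at 136 and 192 CPM in NT and 128 and 131 CPM in IR. In both Xbp1 and Atf4 the higher NT value came from NT 2 and 3, the sample with sublingual gland markers; against NT 1 alone the log2 values were -0.04 and -0.07. Ddit3 was at 4.92 and 4.76 CPM in NT and 5.90 and 5.53 CPM in IR (log2 0.23 ± 0.16, adjusted p = 0.490). Trib3, a pseudokinase induced by Atf4 and Ddit3, rested on few reads, with 1.55 and 1.39 CPM in NT and 3.52 and 3.09 CPM in IR, and did not pass (log2 1.12 ± 0.58, adjusted p = 0.361).

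The 2 NT samples differed from each other in a way that touches these results. In 28 of 40 genes the single library NT 1 was higher than NT 2 and 3. With NT 1 as the only NT sample the median of the 40 genes was -0.37 and 0 members passed in edgeR; with NT 2 and 3 as the only one it was -0.38 and 3 passed. The number of members called was also 0 without IR 1 and 2 or without IR 3, 1 without any one of the IR+GFP or IR+Shh samples, which share the estimate of spread, and 12 or 13 without one of the samples labelled IR+Gli1. The 10 plasma cell markers with a matching symbol, from another cell type with much ER, summed to 29.3 and 14.7 CPM in NT and 17.2 and 8.58 CPM in IR, with the immunoglobulin chain Igkc at 5.53 and 2.35 CPM in NT. The 10 leukocyte and macrophage markers summed to 142 and 119.7 CPM in NT and 71.6 and 70.4 CPM in IR. Of the 8 tested, 0 passed in edgeR, and all 8 log2 values were below 0 with a median of -0.89. In 7 both IR samples lay below both NT samples, against 27.3% of all genes (51.2% not overlapping in either direction). The part of both marker lists in the differences was not tested.

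Among the 32 genes with a promoter window, the 9 that hold an ERSE had a median log2 value of -0.71 in IR against NT, with 9 of 9 below 0, and the 23 without had -0.31, with 18 of 23 below 0. The lowest of the holders was Creld2 and the highest Syvn1 (-0.08). Outside the list 28 genes held an ERSE, and the 9 of them tested had a median of -0.18, with 5 of 9 below 0. In IR+GFP against NT, which shares the NT samples, members with and without the element had medians of -0.57 and -0.19. In IR+Gli1 against IR+GFP these were -0.49 and -0.45. Role and element go together in this list, since the holders are chaperones, isomerases and degradation genes. Differences by element were not tested.

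**Figure D2:**
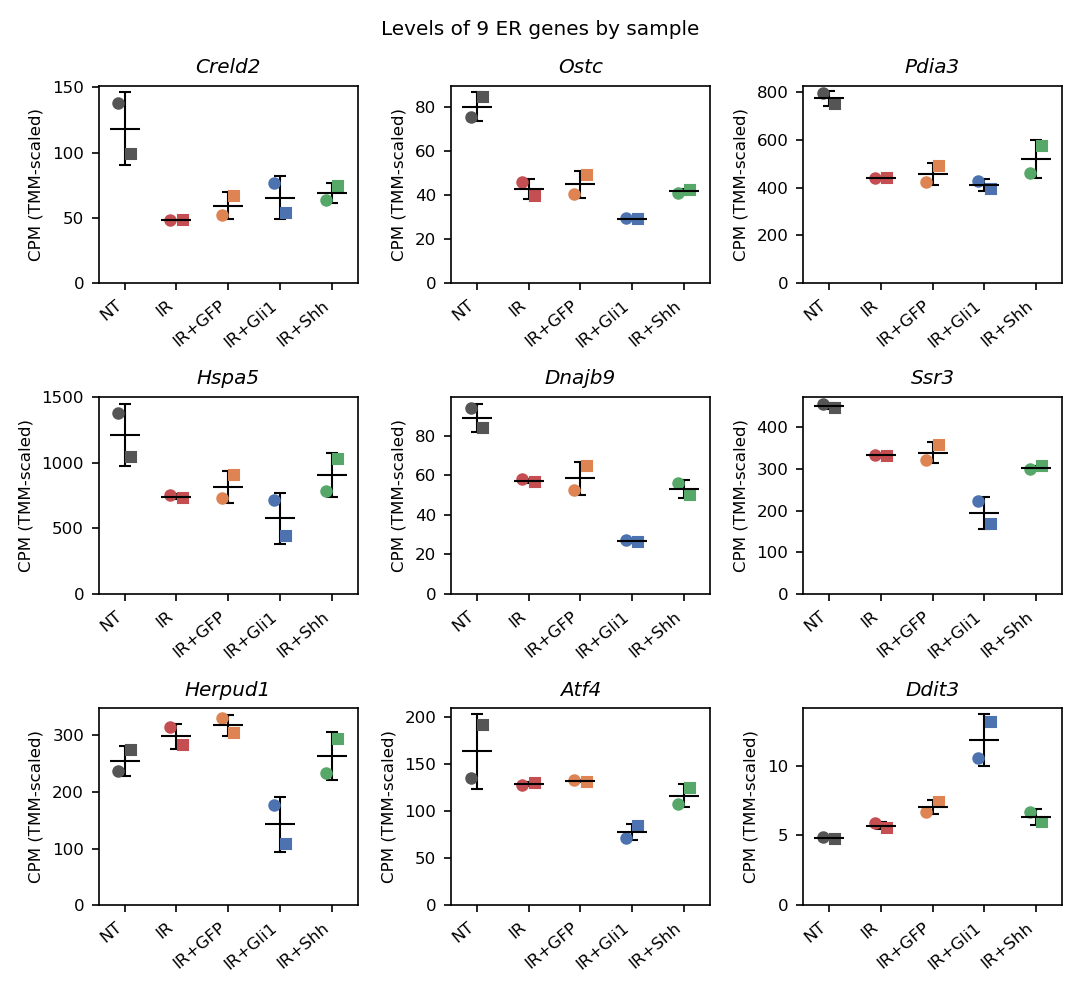
TMM-scaled CPM of 9 ER genes in the 5 groups; circles are single libraries, squares combined pairs, and bars the mean ± SD (n = 2). Creld2, Ostc, Pdia3 and Hspa5 are highest in NT; Dnajb9, Ssr3, Herpud1 and Atf4 are lowest in the samples labelled IR+Gli1, where Ddit3 is highest.

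IR+GFP against NT is a second reading of irradiation, with GFP delivery added; it shares the NT samples with the first comparison, so the values stand side by side and do not count as support for each other. The median over the 40 genes was -0.28 and 35 of 40 were below 0. Ostc passed, at 40.6 and 49.2 CPM in IR+GFP (log2 -0.84 ± 0.12, adjusted p = 0.0196), as 1 of 40 members against 0.741% of all genes called, 0.119% as lower and 0.622% as higher. Its adjusted p without NT 2 and 3 was 0.109. Pdia3, at 424 and 490 CPM, missed the threshold narrowly (-0.76 ± 0.14, adjusted p = 0.0515), and Creld2, at 52.1 and 66.6 CPM, had -0.99 ± 0.21 (adjusted p = 0.0880). With total-count scaling 8 members were lower and 0 higher, against 0.678% of all genes called, 0.503% as higher. In 28 members both IR+GFP samples lay below both NT samples and in 3 above, against 25.1% and 22% of all genes (47.1% together). With TMM the number called was 0 without NT 2 and 3 or without any one of the IR+GFP or IR+Shh samples, and 10 without one of the samples labelled IR+Gli1.

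IR+GFP against IR asked what delivery of GFP changed in the irradiated gland. With edgeR 0 of 40 members and 0% of all genes passed, and 0 members had an unadjusted p under 0.05; DESeq2 and limma-voom also called 0. Member log2 values ranged from -0.21 (Ern1) to 0.41 (Xbp1), with a median of 0.06. Xbp1, the highest of these, went from 217 and 202 CPM in IR to 305 and 251 CPM with GFP (0.41 ± 0.19), without passing.

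The comparison of IR+Gli1 with IR+GFP asked what Gli1 delivery changed beyond delivery itself, and its reading depended on the scaling. In the samples labelled IR+Gli1, the 50 genes with most reads held 36.1% and 50.6% of the reads, against 63.3% to 67.0% in the other samples. TMM gave these samples factors of 1.72 (1 and 2) and 1.31 (3), against 0.866 to 0.994 elsewhere. Total-count scaling moved the median of all genes by 0.77 on the log2 scale in this comparison, by 0.14 in IR+Shh against IR+GFP and by -0.64 in IR+Shh against IR+Gli1. The median log2 value of the 40 ER genes was -0.49 with TMM and 0.27 with total-count scaling, where the median of all genes was 0.78. Relative to the median of all genes the list lay lower by -0.50 with TMM, and 36 of 40 members lay below that median. A change of scaling moves all genes by about the same amount. The values with total counts (-0.51 and 37 of 40) are therefore the same reading and not a second one. The list held 0.699% to 0.733% of gene reads in IR+GFP and 0.822% to 0.861% in the samples labelled IR+Gli1.

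**Figure D3:**
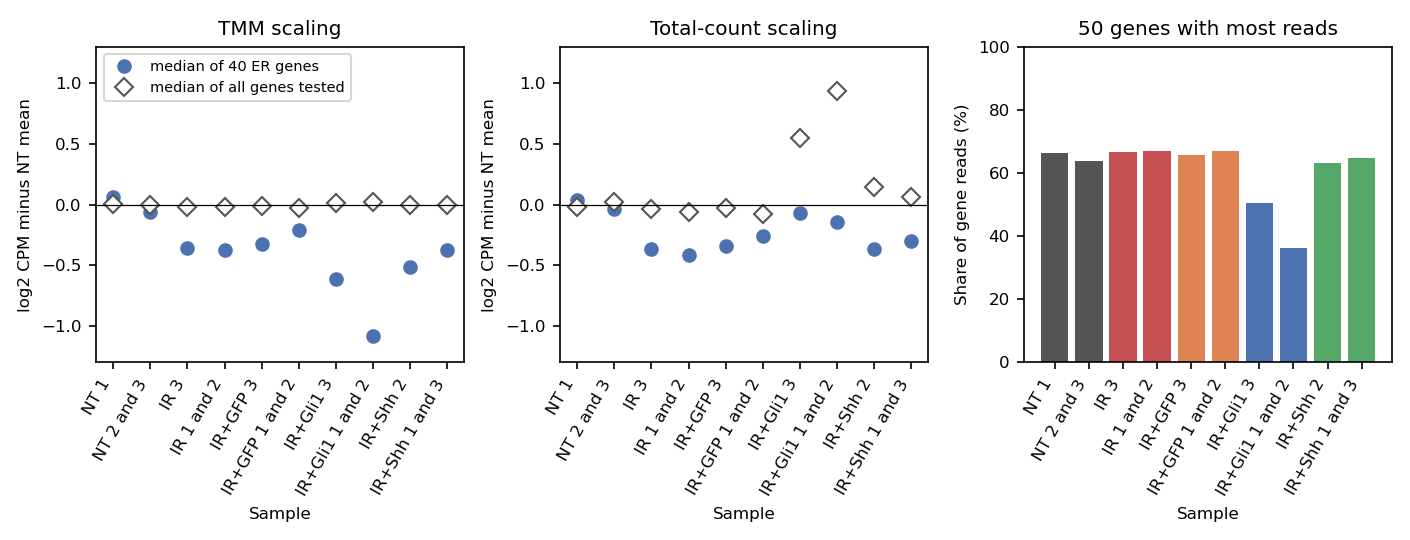
Left and middle: for each of the 10 samples, the median log2 CPM minus the NT mean over the 40 ER genes (filled) and over all genes tested (open), with TMM and with total-count scaling; right: share of gene reads held by the 50 genes with most reads. The ER median lies below the median of all genes in all irradiated samples, and with TMM it is lowest in the samples labelled IR+Gli1. These samples have the lowest share of top genes, 36.1% and 50.6%. Scaling moves all genes of a sample together, so the gap between the medians is nearly the same in the left and middle panels by construction.

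With TMM, 17 members were called lower and 1 higher, against 14% of all genes called, 5.71% as lower and 8.33% as higher. With total-count scaling, 11 members were higher and 2 lower, against 68.1% of all genes called, 67.5% as higher and 0.622% as lower. In 32 members both samples labelled IR+Gli1 lay below both IR+GFP samples on the TMM scale, and in 1 both lay above; the shares over all genes were 27.3% and 28.9%, 56.1% together. All 9 translocon and signal peptide genes passed as lower with TMM, with a median of -0.58; with total-count scaling their median was 0.18, 0 were lower and Spcs1 was higher (0.39, adjusted p = 0.0395). The channel subunits Sec61a1, Sec61b and Sec61g were at -0.73 ± 0.15, -0.80 ± 0.14 and -0.45 ± 0.10 (adjusted p = 0.0123, 0.00891 and 0.0164), and at 0.03, -0.04 and 0.33 with total counts. Ssr3, of the translocon-associated protein complex, fell from 321 and 356 CPM to 222 and 167 CPM with TMM (log2 -0.80 ± 0.14, adjusted p = 0.00877), and was at -0.04 with total counts. Its partners Ssr1 and Ssr2 were at -0.58 and -0.50, and the signal peptidase subunits Sec11c, Spcs1 and Spcs2 at -0.46, -0.39 and -0.65, all passing with TMM and all above 0 with total counts. Levels of these genes in the 2 samples labelled IR+Gli1 were unequal: Sec61a1 was at 348 and 352 CPM in IR+GFP and 235 and 186 CPM in the samples labelled IR+Gli1, and Sec61b at 130 and 126 and then 83.9 and 63.0 CPM. Sec61g was at 73.6 and 77.3 and then 57.6 and 52.5 CPM, Ssr1 at 168 and 169 and then 130 and 95.7, and Ssr2 at 104 and 110 and then 81.4 and 70.4. Sec11c was at 148 and 164 and then 124 and 102 CPM, Spcs1 at 80.1 and 84.4 and then 64.4 and 60.8, and Spcs2 at 157 and 161 and then 117 and 85.6. In each of the 9 genes the combined pair labelled IR+Gli1 was lower than the single library.

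With TMM 1 of 9 chaperones and cochaperones, 0 of 5 lectin chaperones and isomerases and 1 of 4 N-glycosylation genes passed as lower, against 5.71% of all genes. With total counts 2, 3 and 2 of them were higher and 0 lower, against 67.5% and 0.622% of all genes. Dnajb9 (chr12:44205559-44210326) was at 52.8 and 64.5 CPM in IR+GFP and 27.3 and 26.1 CPM in the samples labelled IR+Gli1. It was 2.20-fold lower with TMM (log2 -1.13 ± 0.12, adjusted p = 0.00197), and -0.35 ± 0.17 with total counts, where it missed the threshold (adjusted p = 0.0769). Ostc, at 29.5 and 29.0 CPM in the samples labelled IR+Gli1, was lower with TMM (-0.62 ± 0.12, adjusted p = 0.0115) and at 0.17 with total counts. Creld2 and Pdia3, which were lower in IR than in NT, did not pass with TMM here (0.13 ± 0.21 and -0.15 ± 0.14) and were higher with total counts (0.89 and 0.63, adjusted p = 0.000757 and 0.00484). The median of all genes with total counts was 0.78. Hspa5 was at 729 and 904 CPM in IR+GFP and 716 and 441 CPM in the samples labelled IR+Gli1 (-0.50 ± 0.25, adjusted p = 0.216 with TMM; 0.25 with total counts).

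Among the degradation genes, Herpud1 (chr8:94386438-94395377) was lower under both scalings. Its levels were 331 and 304 CPM in IR+GFP and 177 and 109 CPM in the samples labelled IR+Gli1 (log2 -1.15 ± 0.22, adjusted p = 0.0106 with TMM; -0.41 ± 0.18, adjusted p = 0.0457 with total counts). Edem1, which takes misfolded glycoproteins out of the folding cycle, was at 129 and 146 CPM and then 88.0 and 77.4 CPM (-0.73 ± 0.12, adjusted p = 0.00716 with TMM; 0.04 with total counts). Syvn1 (Hrd1), the ubiquitin ligase of the pathway, was at 66.4 and 69.5 CPM and then 47.1 and 40.7 CPM (-0.63 ± 0.11, adjusted p = 0.00849; 0.14 with total counts). Derl3, a channel protein found in secretory cells, had the lowest log2 value of the 40 (-1.45 ± 0.41). It went from 99.2 and 116 CPM to 57.2 and 21.7 CPM, and passed with total counts (-0.75 ± 0.28, adjusted p = 0.0344) but not with TMM (adjusted p = 0.0599). Sel1l and Derl1 were at -0.64 and -0.27 with TMM and did not pass; with total counts Sel1l was at 0.10 and Derl1 was higher (0.51, adjusted p = 0.00695).

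With TMM the sensors and transcription factors moved in both directions, with 1 of 7 called higher and 3 lower, against 8.33% and 5.71% of all genes. With total counts 2 were higher and 0 lower, against 67.5% and 0.622% of all genes. Ddit3 (chr10:127290774-127296288) was at 6.71 and 7.41 CPM in IR+GFP and 10.6 and 13.2 CPM in the samples labelled IR+Gli1, higher under both scalings (log2 0.74 ± 0.16, adjusted p = 0.0157 with TMM; 1.55 ± 0.25, adjusted p = 0.000328 with total counts). It rested on 109 to 731 reads per sample in these groups. Exons of Ddit3 share bases with Mars and Gm4189 on the opposite strand, and with another annotated entry named Ddit3 on the same strand. In all, 14 of 40 members share exon bases with another annotated gene, 13 of them with one on the opposite strand, among them Pdia3, Dnajb9, Syvn1, Eif2ak3, Sec61a1, Ssr2 and Spcs1. The strand mode of the counting is not given in the sources used here, so reads of such partners cannot be told apart. Atf4 (chr15:80255184-80257541) was at 133 and 131 CPM in IR+GFP and 71.8 and 84.2 CPM in the samples labelled IR+Gli1, lower with TMM (-0.76 ± 0.16, adjusted p = 0.0157) and at 0.04 with total counts. Eif2ak3, at 99.7 and 106 and then 83.0 and 63.9 CPM, was lower with TMM (-0.49 ± 0.14, adjusted p = 0.0423; 0.28 with total counts). Atf6, at 124 and 122 and then 94.6 and 68.1 CPM, was also lower with TMM (-0.60 ± 0.16, adjusted p = 0.0367; 0.16 with total counts). Ern1, at 62.8 and 75.2 and then 66.9 and 67.6 CPM, did not pass with TMM (-0.04 ± 0.13) and was higher with total counts (0.75, adjusted p = 0.00173). Xbp1, at 305 and 251 and then 218 and 176 CPM, passed under neither scaling (-0.50 ± 0.19 and 0.27). Trib3, at 5.11 and 2.68 and then 4.67 and 4.81 CPM, had overlapping groups.

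**Figure D4:**
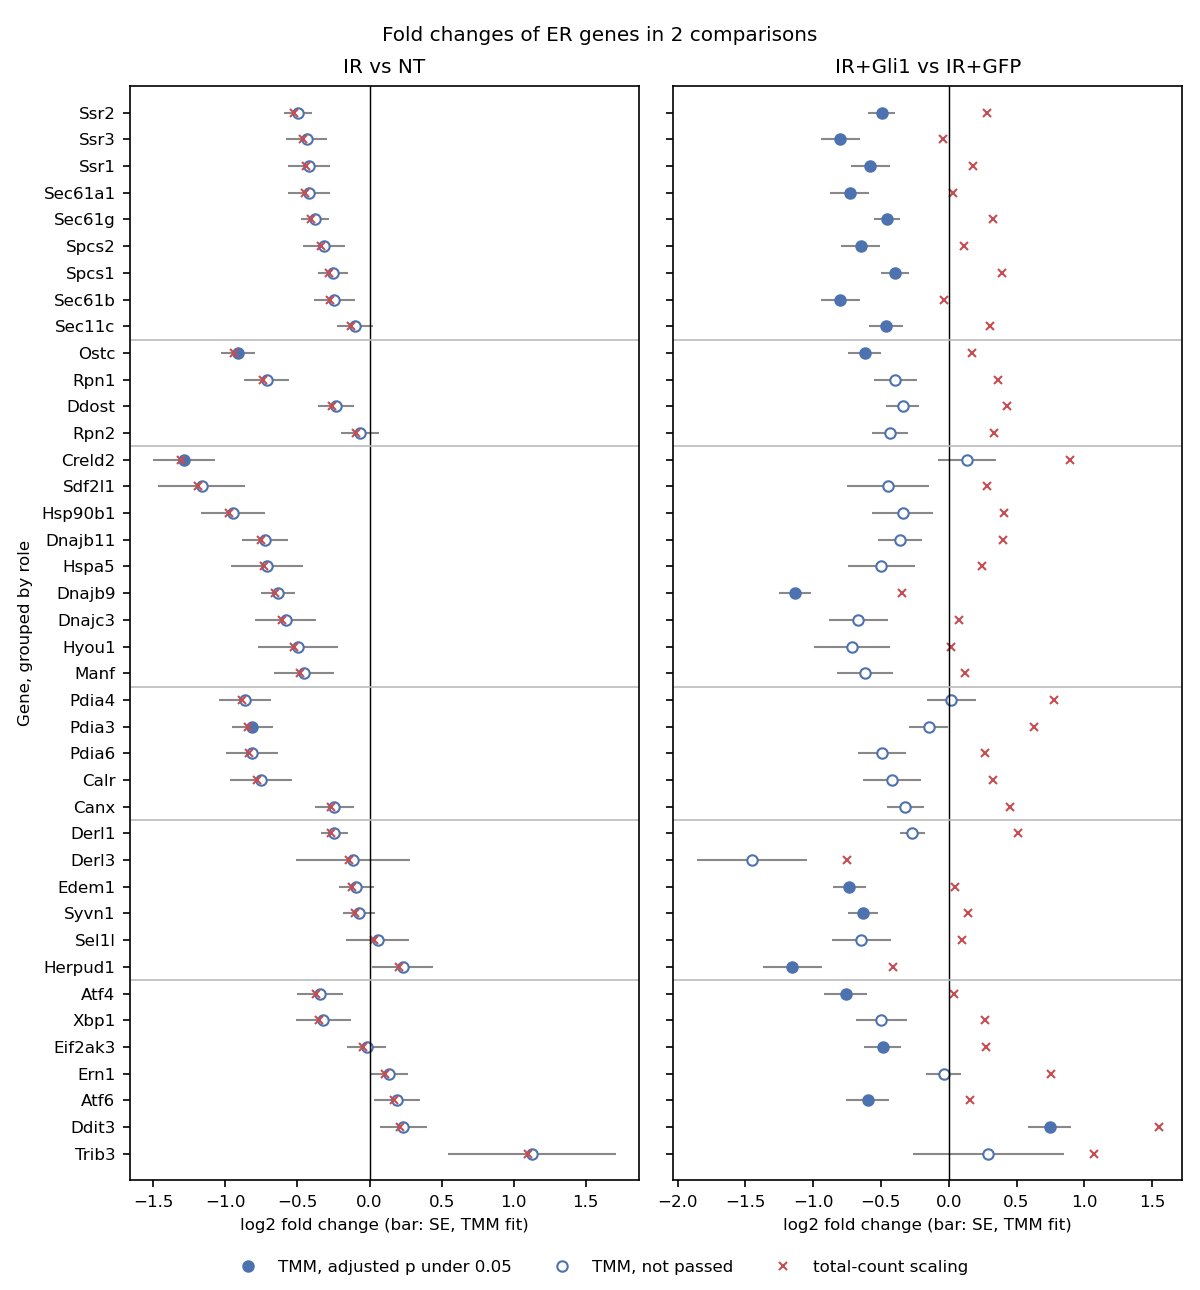
Log2 fold changes of the 40 ER genes in IR against NT (left) and IR+Gli1 against IR+GFP (right); circles and bars are the TMM fit with its SE, filled where adjusted p is under 0.05, and crosses are total-count scaling. Circles and crosses nearly coincide on the left, and on the right the crosses lie to the right of the circles for all 40 genes, so that Herpud1 and Ddit3 are the 2 genes called on the same side by both.

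Other measures moved with the samples labelled IR+Gli1. Of 10 interferon response genes, 10 passed as higher than in IR+GFP under both scalings, against 8.33% of all genes with TMM and 67.5% with total counts. Their summed levels were 749 and 1483 CPM in the samples labelled IR+Gli1, 118 and 182 CPM in IR+Shh, and 61.5 to 91.2 CPM in NT, IR and IR+GFP. Summed leukocyte markers were at 146 and 292 CPM in the samples labelled IR+Gli1 and 50.9 to 142 CPM elsewhere. With TMM 4 of the 8 tested passed as higher, against 8.33% of all genes. Of the 11 granular tubule markers, 8 passed as lower under both scalings, against 5.71% of all genes with TMM and 0.622% with total counts. In 36 of 40 ER genes IR+Gli1 3 was higher than IR+Gli1 1 and 2, as were the granular tubule markers (83969 and 44137 CPM), while the interferon genes were lower in it (749 and 1483 CPM). The part of these in the ER result was not tested. Leaving out single samples changed the number of members called between 1 (without IR+GFP 1 and 2) and 32 (without IR+Gli1 3), and it was 7 without IR+GFP 3 and 8 without IR+Gli1 1 and 2. Same-numbered libraries of these 2 groups deviated together (r = 0.395, 0.330 and 0.394), and IR+GFP 3 and IR+Gli1 3 had the highest shares of reads with several alignments (8.22% and 7.53%, against 2.89% to 4.79%). With a block term shared by those 2 libraries 21 members were called. A fit of these 2 groups alone, with 2 residual degrees of freedom, called 0 members and 1 gene in all, with a member median of -0.50.

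IR+Shh against IR+GFP asked the same of Shh. With edgeR 0 of 40 members passed, as did 0% of all genes, and 2 members had an unadjusted p under 0.05; DESeq2 and limma-voom called 0 members. Log2 values ran from -0.47 (Xbp1) to 0.24 (Hsp90b1), with a median of -0.13 with TMM and 0.02 with total counts. In 17 members both IR+Shh samples lay below both IR+GFP samples and in 0 both lay above, against 20.4% and 21.7% of all genes (42.1% together). Translocon genes had a median of -0.16 and lectin chaperones and isomerases one of 0.12. Herpud1 was at 233 and 293 CPM in IR+Shh, Atf4 at 108 and 125, Ddit3 at 6.72 and 5.93, and Xbp1 at 184 and 217. Trib3 was at 1.33 and 5.76 CPM, the widest ratio of any member between the samples of a group. Of 10 interferon response genes 0 passed. In 8 of them both IR+Shh samples lay above both IR+GFP samples and in 0 below, against 21.7% and 20.4% of all genes (42.1% together). Of the 11 granular tubule markers 0 passed, with both IR+Shh samples below both IR+GFP samples in 9 and above in 1. The part of these in the ER values was not tested.

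IR+Shh against IR+Gli1 shares samples with the comparisons before it, and the sign of most values again depended on the scaling. With TMM 7 members were higher in IR+Shh and 1 lower, against 7.75% of all genes called, 2.77% as higher and 4.98% as lower. In 33 members both IR+Shh samples lay above both samples labelled IR+Gli1 and in 1 below, against 28.7% and 29.8% of all genes (58.5% together). With total counts 1 was higher (Derl3, 0.93 ± 0.28, adjusted p = 0.0179) and 7 lower, against 56.7% of all genes called, 0.594% as higher and 56.1% as lower. The 7 that were higher with TMM were Dnajb9 (0.99 ± 0.12, adjusted p = 0.00678), Herpud1 (0.88 ± 0.22, 0.0418), Ssr3 (0.64 ± 0.14, 0.0307), Sec61b (0.60 ± 0.14, 0.0368), Ostc (0.51 ± 0.12, 0.0362), Edem1 (0.47 ± 0.12, 0.0484) and Sec61g (0.38 ± 0.10, 0.0454), and 0 of these 7 passed with total counts. Dnajb9 was at 56.3 and 49.98 CPM in IR+Shh and 27.3 and 26.1 CPM in the samples labelled IR+Gli1, and its value with total counts was 0.35 (adjusted p = 0.0817). Ddit3 was lower in IR+Shh than in the samples labelled IR+Gli1 under both scalings (-0.90 ± 0.16, adjusted p = 0.0164 with TMM; -1.56 ± 0.25, adjusted p = 0.000920 with total counts). The number of members called with TMM was 0 without either IR+Shh sample, 1 without IR+Gli1 1 and 2, 28 without IR+Gli1 3, 2 without either IR sample, and 3 or 4 without one of the IR+GFP samples.

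Across the 5 groups, 33 of 40 members had their highest TMM-scaled mean in NT and 36 their lowest in the samples labelled IR+Gli1. With total counts 23 were highest in NT and 16 in the samples labelled IR+Gli1, and 20 were lowest in IR. Such counts were not made over all genes, of which 67.5% were called higher in IR+Gli1 than in IR+GFP with total counts. Per kilobase of exon, the most abundant members in NT were Calr (320 CPM per kb), Hspa5 (287) and Pdia3 (246), and the least abundant Trib3 (0.692) and Ddit3 (2.83).

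Other genes of the same pathways gave a wider base for the list. Of 95 further genes of translocation, glycosylation, folding, glycan trimming, degradation, stress response and export found in the tables, 92 were tested. In IR against NT 1 was higher and 1 lower (0.517% and 0.168% of all genes), with a median of -0.24 and 74 of 92 below 0. Sesn2, a stress-induced regulator of nutrient signalling that is also a p53 target, was at 7.59 and 7.77 CPM in NT and 22.4 and 20.7 CPM in IR (1.48 ± 0.15, adjusted p = 0.00415), and it also passed in IR+GFP against NT (1.39 ± 0.15, adjusted p = 0.00726). Mogs, the glucosidase that trims the first glucose from new glycans, was at 43.1 and 46.3 and then 27.6 and 30.9 CPM (-0.61 ± 0.10, adjusted p = 0.0324), and did not pass with total counts (adjusted p = 0.173). In IR+Gli1 against IR+GFP 39 of 92 were lower and 1 higher with TMM, against 5.71% and 8.33% of all genes. With total counts 40 of 92 were higher and 2 lower, against 67.5% and 0.622% of all genes, so the share of these genes called higher lay below that of all genes. The 4 with the smallest adjusted p were Tmem258 (-0.62 ± 0.08), a subunit of the oligosaccharyltransferase, Sec24d (-1.45 ± 0.20), a cargo adaptor of the COPII export coat, Srp68 (-0.66 ± 0.10), of the signal recognition particle, and Spcs3 (-0.91 ± 0.13), of the signal peptidase (adjusted p = 0.00389 to 0.00460). Sec24d was at 79.4 and 86.6 CPM in IR+GFP and 38.1 and 23.0 CPM in the samples labelled IR+Gli1, and it was lower with total counts too (-0.70, adjusted p = 0.00152). The gene called higher was Crebrf, a regulator of the factor Creb3 (0.50 ± 0.12, adjusted p = 0.0245; 1.28 with total counts). In IR+Shh against IR+Gli1 14 of 92 were higher with TMM (2.77% of all genes), led by Tmem258 (0.53), Ero1lb (0.93), Spcs3 (0.67) and Ssr4 (0.67), of which 0 passed with total counts. The 1 lower gene, Atf3, a stress factor downstream of Atf4, was at 3.69 and 4.81 CPM in IR+Shh and 8.34 and 23.1 CPM in the samples labelled IR+Gli1 (-1.89 ± 0.42, adjusted p = 0.0368; -2.61 with total counts). In IR+GFP against IR and IR+Shh against IR+GFP 0 of 92 passed, and 2 and 7 had an unadjusted p under 0.05.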

How the data were processed

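RNA-seq of 15 mouse gland libraries was analysed. Counts of reads per gene, deposited by the authors as whole numbers, were made with TopHat2 2.0.13, Bowtie 0.12.2 and HTSeq 0.10.0 on mm10/GRCm38, per the submitters' processing notes, which also name DESeq2. The annotation release is not given in the sources used here. Rows that name no gene (6.98% to 13.9% of reads) were left out. GENCODE vM21 gave symbols and coordinates for 37607 of 39179 identifiers (96.0%).

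Near-identical pairs of libraries were replaced by their rounded mean. Genes passing filterByExpr were fitted with edgeR 4.0.16 in R 4.3.3 (TMM, robust quasi-likelihood, prior count 2), all 5 groups in one fit with 5 residual degrees of freedom, for 6 two-sided comparisons with Benjamini-Hochberg adjustment over all genes at 0.05. SE is the log2 fold change divided by the square root of F. The fit was run on counts simulated with its own estimates of spread, for IR against NT and IR+Gli1 against IR+GFP. Those counts held no shift like that of the top genes in the samples labelled IR+Gli1, so they cannot bear on the choice of scaling. Alternatives were total-count scaling, DESeq2 1.42.0 with its size factors, limma 3.58.1 (voom), no filter, separate libraries, a replicate block, the compared groups alone and left-out samples.

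The members and lists were chosen with earlier results of these data known. Values in every sample were to be given for members passing in any comparison with TMM and for the 7 sensors and factors, and up to 4 other ER genes per comparison by adjusted p; other genes given with values, such as Hspa5, Hsp90b1 and Derl3, were chosen after their values were seen. A planned comparison of protein ends was not done. Of 30 pairs of same-numbered libraries, the 3 of IR+GFP with IR+Gli1 correlated above 0.1 in their deviations from the group means (r = 0.330 to 0.395). Since libraries 1 and 2 are near-identical in both groups, the 3 values are not independent and cannot tell library 1 from library 2. They show that library 3 differed from 1 and 2 in a similar direction in both groups. No label pairs the libraries. The other 27 pairs did not correlate above 0.1.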

Additional observations from a re-analysis of the deposited data

How the results depend on the processing

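Members called are counted here, against 3 in IR vs NT, 1 in IR+GFP vs NT, 0 in IR+GFP vs IR, 18 in IR+Gli1 vs IR+GFP, 0 in IR+Shh vs IR+GFP and 8 in IR+Shh vs IR+Gli1. Apart from total-count scaling, the share of all genes called under each alternative is not given. These counts therefore describe how calls depend on processing, not how ER genes compare with other genes. The same holds for the counts with left-out samples or a block term given earlier. Total-count scaling gave 9 and 8 in the 2 comparisons with NT. It turned the direction in IR+Gli1 vs IR+GFP (13, of which 11 higher) and IR+Shh vs IR+Gli1 (8, of which 7 lower). In IR+Gli1 vs IR+GFP it put Sec61a1 at 0.033, Sec61g at 0.33, Ssr1 at 0.18, Ssr2 at 0.28, Sec11c at 0.31, Spcs1 at 0.39, Spcs2 at 0.11, Ostc at 0.17, Edem1 at 0.044, Syvn1 at 0.14, Ern1 at 0.75, Eif2ak3 at 0.28, Atf6 at 0.16 and Atf4 at 0.042 on the log2 scale. In IR+Shh vs IR+Gli1 it put Sec61b at -0.013, Sec61g at -0.26, Ostc at -0.13, Edem1 at -0.17, Ern1 at -0.47 and Xbp1 at -0.60. No low-count filter gave 16, 14 and 17 in IR vs NT, IR+GFP vs NT and IR+Shh vs IR+Gli1, and DESeq2 gave 13, 12 and 19; the cause was not tested. The compared groups alone, with fewer samples, gave 0 in IR+GFP vs NT, IR+Gli1 vs IR+GFP and IR+Shh vs IR+Gli1. Leaving out 1 sample at a time gave 0 to 13 in IR vs NT, 0 to 10 in IR+GFP vs NT, 1 to 32 in IR+Gli1 vs IR+GFP and 0 to 28 in IR+Shh vs IR+Gli1, where a lone sample is assumed to vary like the other groups. Without IR+GFP 3 and IR+Gli1 3 together the counts were 11, 0, 28 and 28 in that order. IR+GFP vs IR stayed at 0 under all alternatives run.

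The 15 separate libraries, which count near-identical pairs as independent, gave 24 in IR vs NT, 21 in IR+GFP vs NT, 35 in IR+Gli1 vs IR+GFP, 1 in IR+Shh vs IR+GFP and 35 in IR+Shh vs IR+Gli1, and with a replicate block the counts were again 24, 21, 35, 1 and 35. Outside IR+GFP with IR+Gli1, same-numbered libraries did not correlate above 0.1. The closest library by correlation carried the same number for 7 of the 15. A block term shared by IR+GFP 3 and IR+Gli1 3, chosen after seeing the data, gave 4, 1, 21 and 8 in the 4 comparisons with calls, and total reads outside the 50 top genes, also added then, gave 3, 1, 18 and 10.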

Other observations

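Of 13 genes of the vesicle coats and of export from the ER, which carry folded proteins on to the Golgi, 0 passed in IR against NT with edgeR. In 12 of them both IR samples lay below both NT samples, against 27.3% of all genes (51.2% not overlapping in either direction), and the median log2 value was -0.52. The same genes had a median of -0.44 in IR+GFP against NT, which shares the NT samples.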
